A study of Mus musculus with 16 samples.

Results

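The genes described here are those of microRNAs (miRNAs) with a measurable signal in the lower first molar of the mouse embryo. Members were selected on their mean signal: a gene was included where its symbol on the array names a miRNA, where its probe set carries no other symbol, and where its log2 signal averaged above 5 over all 16 samples. Of 298 probe sets named for a single miRNA gene, 164 passed this minimum, each for a gene of its own, and 134 did not. Nearest to the minimum lay *Mir130a* (5.02) and *Mir539* (5.02) inside it and *Mir9-1* (4.998) and *Mir543* (4.97) outside it. The mean over all pools chose the genes, so a gene near the minimum could pass through 1 series: 3 of the 164 had an AZN mean at or under 5 and 2 an ABH mean at or under 5.

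RNA came from mandibular molar germs at embryonic day 14.5 (E14.5), the cap stage, pooled 4 germs to a sample. Of 16 pools on a C57Bl6 background, 8 came from wild-type (WT) males and 8 from *Rsk2-/Y* males, which lack the kinase RSK2 through excision of exon 2 of its X-linked gene. By their names the samples form an ABH and an AZN series of 8 pools, 4 per genotype, and none of the sources explains these names. The study's methods give the WT animals as littermates and 2 embryos to a pool, but not which pools share a litter, so the tests measure the spread between pools. *Rps6ka3*, which encodes RSK2, ran from 9.61 to 10.22 (log2) in WT and from 9.74 to 10.40 in *Rsk2-/Y*. Its probes are spread along the gene, so this signal does not check the removal of exon 2.

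A miRNA is cut from a long primary transcript, first to a hairpin in the nucleus by Drosha with DGCR8 and then by Dicer to a short duplex, from which a strand is loaded into an Argonaute protein. Bases 2 to 8 of that strand, the seed, pair with target messenger RNAs and reduce their translation and stability. In the developing tooth, loss of Dicer in the epithelium is known to alter the number and shape of teeth. The array reads RNA that overlaps the miRNA gene, largely its primary transcript or host transcript, and gives no level of the mature strand.

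RefSeq (GRCm38.p6) holds a mature sequence for 151 of the 164 genes, 277 strands with 230 distinct seeds, and 34 of these seeds are shared by at least 2 of the genes. The strands below belong to the genes on which the results turn, with the seed in capitals. The first lines show genes with a large difference between genotypes or series.
miR-205-5p, from *Mir205*, chr1:193507503-193507524, minus strand: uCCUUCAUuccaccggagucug
miR-568, from *Mir568*, chr16:43640665-43640684, plus strand: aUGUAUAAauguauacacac
miR-382-5p, from *Mir382*, chr12:109733781-109733802, plus strand: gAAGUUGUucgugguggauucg
miR-377-3p, from *Mir377*, chr12:109740553-109740574, plus strand: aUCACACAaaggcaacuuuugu
miR-692, from *Mir692-1*, chr17:6895259-6895279, minus strand: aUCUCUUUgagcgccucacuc
miR-218-5p, from *Mir218-1*, chr5:48223966-48223986, plus strand: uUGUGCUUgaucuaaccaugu
miR-505-3p, from *Mir505*, chrX:60394416-60394437, minus strand: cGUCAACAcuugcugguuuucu
miR-350-3p, from *Mir350*, chr1:176772342-176772363, minus strand: uUCACAAAgcccauacacuuuc

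The next lines set strands with a shared seed beside each other, to go with the differences of their genes between the series.
miR-125b-5p, from *Mir125b-1*, chr9:41581940-41581961, plus strand: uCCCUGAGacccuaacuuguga
miR-125a-5p, from *Mir125a*, chr17:17830817-17830840, plus strand: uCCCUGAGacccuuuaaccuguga
miR-100-5p, from *Mir100*, chr9:41531437-41531458, plus strand: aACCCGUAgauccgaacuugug
miR-99a-5p, from *Mir99a*, chr16:77598940-77598961, plus strand: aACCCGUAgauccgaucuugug
miR-99b-5p, from *Mir99b*, chr17:17830194-17830215, plus strand: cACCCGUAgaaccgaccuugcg
miR-130a-3p, from *Mir130a*, chr2:84741116-84741137, minus strand: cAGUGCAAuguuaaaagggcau
miR-130b-3p, from *Mir130b*, chr16:17124071-17124092, minus strand: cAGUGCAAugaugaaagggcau
miR-181b-5p, from *Mir181b-1*, chr1:137966650-137966673, plus strand: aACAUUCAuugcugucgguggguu
miR-181c-5p, from *Mir181c*, chr8:84178924-84178945, minus strand: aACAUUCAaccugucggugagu
miR-181d-5p, from *Mir181d*, chr8:84178759-84178781, minus strand: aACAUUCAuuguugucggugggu
miR-199a-3p, from *Mir199a-1*, chr9:21496498-21496519, minus strand: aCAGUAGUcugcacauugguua
miR-199b-3p, from *Mir199b*, chr2:32318524-32318545, plus strand: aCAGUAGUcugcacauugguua
miR-200b-3p, from *Mir200b*, chr4:156055685-156055706, minus strand: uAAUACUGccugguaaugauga
miR-200c-3p, from *Mir200c*, chr6:124718324-124718346, minus strand: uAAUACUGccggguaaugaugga
miR-103-3p, from *Mir103-2*, chr2:131288103-131288125, plus strand: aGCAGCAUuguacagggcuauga
miR-107-3p, from *Mir107*, chr19:34820700-34820722, minus strand: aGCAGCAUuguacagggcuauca

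Signals of the 164 genes were low. Their means ran from 5.02 to 9.85 with a median of 6.50, against a median of 7.93 over the 18834 probe sets tested, and 58 lay at 6 or below. The 20th percentile of all values in the file was 4.79, so many of these genes were measured close to the background. Only 20 genes had a mean above 8. The 8 with the highest signal were *Mir692-1* (9.85), *Mir505* (9.65), *Mir341* (9.20), *Mir667* (8.97), *Mir134* (8.86), *Mir15a* (8.82), *Mir7-1* (8.79) and *Mir346* (8.66). Signals of different probe sets also depend on their probes, so this list is not an order of amounts. The median SD of a gene within a group of 4 pools was 0.17 on the log2 scale.

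Markers of the labelled tissue were present, and so were those of skeletal muscle. All 11 dental mesenchyme genes measured had a mean signal between 9.73 and 12.75, and the 16 dental epithelium genes measured lay between 7.42 and 12.13. The 22 skeletal muscle genes measured lay between 5.73 and 10.84, and their mean per pool ran from 7.22 to 9.54. The miRNAs of skeletal and cardiac muscle, such as *Mir1a-1*, *Mir133b* and *Mir206*, gave none of 12 listed genes above the minimum, and the large imprinted cluster in *Sfmbt2* gave none of 57. Of 64 miRNA genes listed for the imprinted Dlk1-Dio3 domain on chromosome 12, 26 passed. The let-7 genes with their mir-125 and mir-99/100 neighbours gave 11 of 18, neural miRNAs 10 of 22, mesenchymal and skeletal miRNAs 7 of 15, epithelial miRNAs 6 of 12, the mir-17 clusters 4 of 18, other imprinted loci 4 of 5, blood and endothelial miRNAs 3 of 16, and the Hox clusters 2 of 6.

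A few pools stood apart over the miRNA genes as a group. The *Rsk2-/Y* pool ABH 14 had the highest value of its group for 146 of the 164 genes (89.0%), against 31.4% of all probe sets tested. In AZN, the unnumbered WT pool had the lowest value of its group for 107 genes (65.2%, all tested 17.2%) and the unnumbered *Rsk2-/Y* pool for 118 (72.0%, all tested 21.1%). WT pool 2 of AZN had the highest value of its group for 94 (57.3%, all tested 21.6%). The median signal over the miRNA genes was 6.79 in ABH 14 and 6.13 and 6.19 in the unnumbered WT and *Rsk2-/Y* pools of AZN, while the other 13 pools ran between 6.25 and 6.68. The median of all probe sets tested varied only from 7.87 to 7.98 over the pools. In ABH 14 the mean of 22 skeletal muscle genes was 9.16, against 7.22 to 8.18 in the other *Rsk2-/Y* pools of ABH. What these pools share was not tested. Values without ABH 14 and both unnumbered pools stand beside the counts and lists that they move, and these exclusions were chosen after seeing the data.

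The first question was whether miRNA genes differed between *Rsk2-/Y* and WT molars over both series. None of the 164 passed the test in limma (FDR under 0.1, with a change of more than 1.2-fold), and the same held for all probe sets tested, of which 0% passed. At an unadjusted p under 0.05, limma gave 0 higher and 1 lower miRNA gene, which is 0.61% of the 164 against 4.05% of all probe sets. The methods' t-test also gave none after adjustment. With series as a block 0 miRNA genes passed too, and the smallest adjusted p of any was 0.612 from limma, that of *Mir205*. The median difference of the 164 was -0.01 on the log2 scale, with 77 above 0, and the median standard error of a difference was 0.10. The most negative values were those of *Mir205* (-0.35), *Mir200b* (-0.32) and *Mir369* (-0.28), and the most positive those of *Mir350* (0.38), *Mir505* (0.34) and *Mir218-1* (0.24). These values moved with single pools. Leaving out 1 pool also leaves the series unequal between the genotypes, and the part of this in the moves was not tested. *Mir205* ran from -0.54 without the unnumbered WT pool of AZN to -0.19 without WT pool 25 of ABH, and it was over 1.5 times smaller also without WT pool 12 or 13 of ABH or *Rsk2-/Y* pool 4 of AZN. *Mir218-1* was at 0.08 and *Mir505* at 0.16 without ABH 14, at 0.12 and 0.22 without the unnumbered WT pool of AZN, and *Mir218-1* reached 0.40 without the unnumbered *Rsk2-/Y* pool. *Mir200b* ran from -0.46 to -0.22, *Mir350* from 0.26 to 0.46 and *Mir369* from -0.36 to -0.23.

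Within ABH, *Mir125b-1* alone passed. It encodes the mir-125b strand shown above and lies with *Mir100* and *Mirlet7a-2* in the long noncoding transcript *Mir100hg*. Its signal was 5.83, 5.91, 5.79 and 5.97 in WT pools 11, 12, 13 and 25 and 6.43, 6.31, 6.36 and 6.41 in *Rsk2-/Y* pools 14, 15, 16 and 26. The genotypes did not overlap. In ABH all *Rsk2-/Y* pools lay above all WT pools for 4 of the 164 genes (2.44%), against 2.81% of all probe sets tested. *Mir125b-1* averaged 5.87 ± 0.08 in WT against 6.38 ± 0.05 in *Rsk2-/Y* pools (SD, n = 4), so the log2 difference was 0.50 with a standard error of 0.06 (limma, adjusted p = 0.033). Over all probe sets tested, 0.0212% passed in ABH, which is 4, and *Mir125b-1* was the only one of them that was higher.

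This call was narrow. Without pool 14 the difference was 0.49 (adjusted p = 0.052 from limma), but leaving out other pools gave adjusted p-values up to 0.249, and it did not pass without WT pool 11, 12 or 13 or without *Rsk2-/Y* pool 15, 16 or 26. With the spread estimated over all 16 samples its adjusted p was 0.470. In AZN the signal of *Mir125b-1* was 5.66, 6.45, 5.56 and 5.08 in WT pools 1, 2 and 3 and the unnumbered one, and 5.17, 5.42, 5.89 and 5.39 in *Rsk2-/Y* pools 1, 3 and 4 and the unnumbered one. The genotypes overlapped there, with a difference of -0.22 (limma, standard error 0.25, adjusted p = 1). The difference between the 2 series' genotype effects was -0.72 and did not pass (adjusted p = 0.728 from limma). *Mir100hg* itself was at 0.08 in ABH and did not pass.

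**Figure D1:**
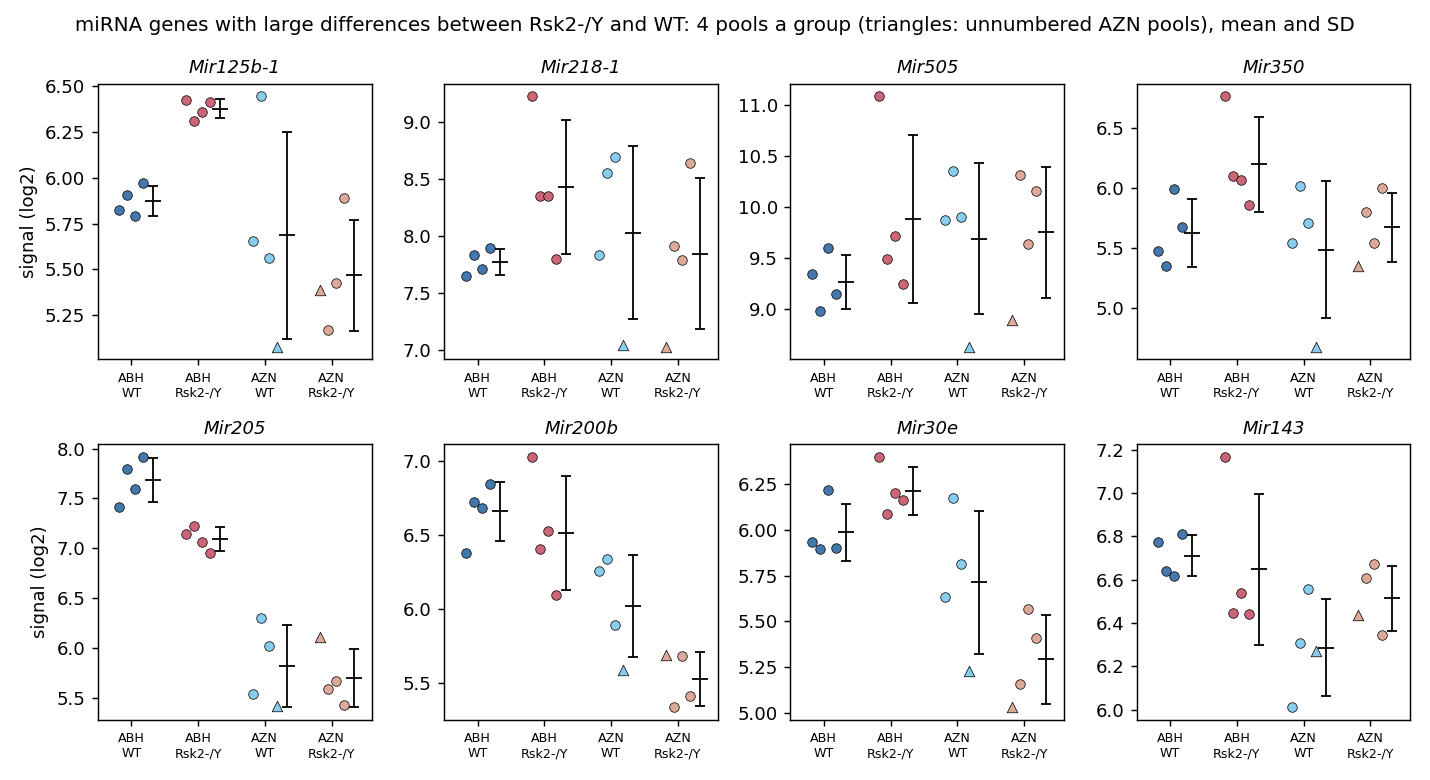
Signal (log2) of 8 miRNA genes in every pool, by series and genotype; points are pools, triangles the unnumbered AZN pools, bars the group mean and SD (n = 4). The *Mir125b-1* values of ABH *Rsk2-/Y* (6.31 to 6.43) lie above those of ABH WT (5.79 to 5.97), while the top point of *Mir218-1*, *Mir505*, *Mir350* and *Mir143* in ABH *Rsk2-/Y* is pool 14.

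*Mir205*, an epithelial miRNA of skin, gland and tooth, showed the most negative value in ABH. Its signal was 7.42, 7.80, 7.59 and 7.92 in WT pools 11, 12, 13 and 25 and 7.14, 7.23, 7.06 and 6.95 in *Rsk2-/Y* pools 14, 15, 16 and 26. The genotypes did not overlap. All *Rsk2-/Y* pools of ABH lay below all WT pools for 4 of the 164 genes (2.44%), against 5.78% of all probe sets tested. *Mir205* averaged 7.68 ± 0.22 in WT against 7.09 ± 0.12 in *Rsk2-/Y* pools (SD, n = 4), and the log2 difference of -0.59 did not pass (limma, standard error 0.11, adjusted p = 0.154). In AZN the difference was -0.12 (adjusted p = 1 from limma). All 16 dental epithelium genes measured also lay below 0 in both series, with a median of -0.21 in ABH and -0.25 in AZN, and 1 of them, the tight junction gene *Cldn6*, passed in ABH (-0.47). Their mean per pool was 10 to 10.18 in ABH WT and 9.74 to 9.88 in ABH *Rsk2-/Y*. Skeletal muscle genes went the other way. Of 22 measured, 21 lay above 0 in ABH (median 0.35) and 22 in AZN (median 0.63), and 0 passed in either. The part of either tissue's share in the *Mir205* value was not tested, and in bulk samples fewer cells of a type and less RNA per cell cannot be told apart. Of the 6 epithelial miRNA genes, 0 passed between genotypes in either series, and their median was -0.01 in ABH and -0.08 in AZN.

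The largest positive values in ABH were smaller without pool 14. *Mir218-1*, which lies in the guidance gene *Slit2*, had signals of 7.65, 7.83, 7.70 and 7.89 in WT pools 11, 12, 13 and 25 and of 9.23, 8.35, 8.35 and 7.80 in *Rsk2-/Y* pools 14, 15, 16 and 26. Its difference of 0.66 (limma, standard error 0.24, adjusted p = 0.290) became 0.40 without pool 14. *Mir505* had 9.35, 8.98, 9.60 and 9.15 in the same WT pools and 11.09, 9.49, 9.72 and 9.24 in the same *Rsk2-/Y* pools. Here pool 14 was the highest of all 8 pools, and the difference of 0.62 (adjusted p = 0.472 from limma) became 0.21 without it. *Mir350*, in the centrosomal gene *Cep170*, was at 0.57 (adjusted p = 0.266 from limma) with pool 14 and at 0.39 without it. The host genes had smaller values in ABH, 0.25 for *Slit2* and 0.14 for *Cep170*.

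Pool 14 also set the balance of signs. With it, 89 of the 164 genes lay above 0 in ABH, and without it 46 did, with a median of 0.01 and -0.08 (log2). Over all probe sets tested, 7162 lay above 0 with pool 14 and 7709 without it, with a median of -0.03 both times. Differences beyond 1.2-fold were seen for 18 of the miRNA genes (11%) in ABH with all pools and for 17 (10.4%) without pool 14, against 4.33% and 4.41% of all probe sets. The miRNA genes were also less precisely measured, with a median standard error of 0.104 against 0.07 for all probe sets. Without pool 14 these were 0.08 and 0.065. The part of this spread in the shares beyond 1.2-fold was not tested. At an unadjusted p under 0.05, limma gave 10 higher and 7 lower miRNA genes in ABH, 10.4% of the 164 against 13% of all probe sets. Without pool 14 these counts were 6 higher and 37 lower, 26.2% against 17.9%.

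In AZN no miRNA gene passed, and 0% of all probe sets did. At an unadjusted p under 0.05, limma gave 0 higher and 3 lower miRNA genes, 1.83% against 2.89% of all probe sets, and without the unnumbered pools 1 higher and 10 lower, 6.71% against 3.22%. The most negative value was that of *Mir200b*, an epithelial miRNA of the mir-200 family, with signals of 6.26, 6.34, 5.89 and 5.59 in WT pools 1, 2 and 3 and the unnumbered one and of 5.34, 5.68, 5.41 and 5.69 in *Rsk2-/Y* pools 1, 3 and 4 and the unnumbered one. The groups overlapped only through the unnumbered WT pool. *Mir200b* averaged 6.02 ± 0.35 in WT against 5.53 ± 0.18 in *Rsk2-/Y* pools (SD, n = 4), a log2 difference of -0.49 (limma, standard error 0.16, adjusted p = 1) that was -0.69 without both unnumbered pools (adjusted p = 0.999). *Mir30e* was at -0.42 and *Mirlet7c-1* at -0.42. For *Mirlet7c-1* this rested on WT pool 2, whose 6.54 lay far above the 4.44 to 5.44 of the other WT pools, and leaving out 1 pool at a time moved the value between -0.74 and -0.04. The most positive values were those of *Mir143* (0.23), *Mir132* (0.22) and *Mir146b* (0.22). Differences beyond 1.2-fold were seen for 12 of the miRNA genes (7.32%, all tested 3.18%) with all pools and for 27 (16.5%, all tested 4.60%) without the unnumbered ones. The median standard error was 0.12 for the miRNA genes and 0.089 for all probe sets with all pools, and 0.125 and 0.101 without the unnumbered ones.

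The genotype values of ABH and AZN come from separate pools and were of the same sign for 61 of the 164 genes (37.2%), against 48.8% of all probe sets tested. Without pool 14 the count was 74 (45.1%, all tested 45.5%), and without the unnumbered pools as well it was 67 (40.9%, all tested 44.1%). Of the let-7 genes and their mir-125 and mir-99/100 neighbours, which in other tissues mark differentiating cells, 8 of 11 lay above 0 in ABH with a median of 0.16, and in AZN 10 of 11 lay below 0 with a median of -0.14. Without pool 14, 6 of the 11 lay above 0 in ABH with a median of 0.04, and without the unnumbered pools 10 still lay below 0 in AZN with a median of -0.22. Only *Mir125b-1* of these passed, in ABH. In the Dlk1-Dio3 domain, 15 of 26 lay above 0 in ABH and 21 of 26 below 0 in AZN, and 0 passed in either. Here pool 14 decided the sign: without it 4 of the 26 lay above 0 in ABH and the median went from 0.03 to -0.11, while without the unnumbered pools 24 lay below 0 in AZN. For the difference between the 2 genotype effects, 0 of the 164 passed in limma, as did 0% of all probe sets. The smallest adjusted p of a miRNA gene there was 0.728, and an unadjusted p under 0.05 was found for 4 higher and 2 lower, 3.66% against 6.31% of all probe sets. With pool 14 and both unnumbered pools left out, 0 miRNA genes passed as well, and 21 higher and 8 lower had an unadjusted p under 0.05, 17.7% against 10.6% of all probe sets.

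**Figure D2:**
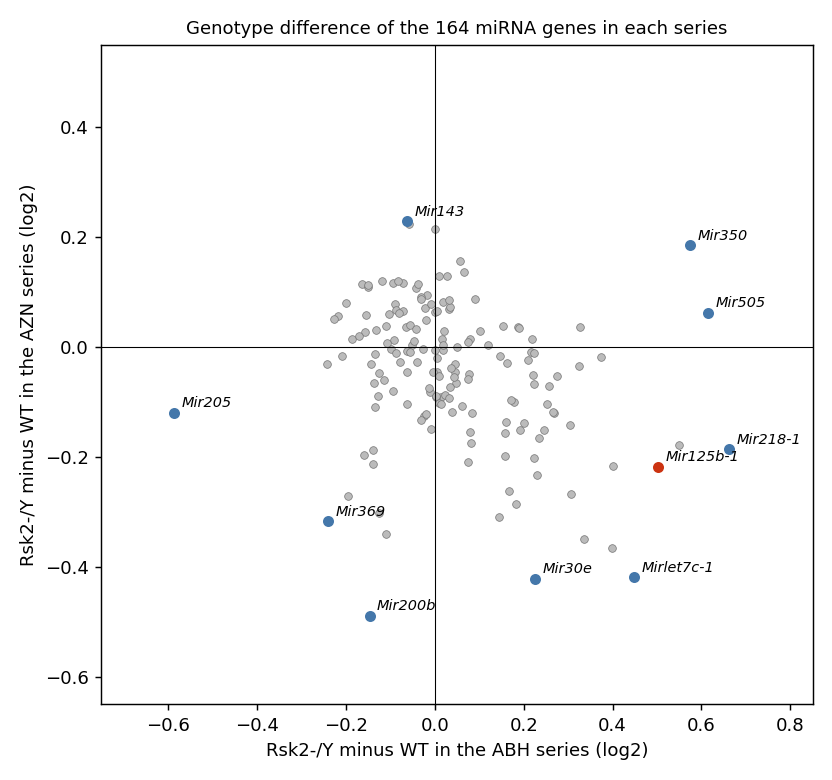
Difference between *Rsk2-/Y* and WT (log2) of each of the 164 miRNA genes in ABH (x axis) and in AZN (y axis), from 4 pools a group. *Mir125b-1* (red), at 0.50 in ABH and -0.22 in AZN, is the only one that passed, and the lower right field (above 0 in ABH, below 0 in AZN) holds *Mir218-1*, *Mirlet7c-1* and *Mir30e*.

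The genes of the machinery that makes miRNAs did not pass either. Of 23 genes listed for processing, loading and turnover, 18 were measured, and 0 passed for genotype over both series, in ABH, in AZN or between the series. *Drosha* was at 0.03 in ABH and -0.10 in AZN, and *Dicer1* at 0.04 and -0.06. The largest values of the list in ABH were 0.22 for the Argonaute gene *Ago3* and 0.21 for *Dgcr8* (adjusted p = 0.19 and 0.239 from limma). In AZN these genes were at -0.06 and -0.03. Between the series the list had a median of -0.08, with 12 genes below 0 and 6 above. *Dicer1* was at -0.25 (limma, adjusted p = 0.000167) and *Dgcr8*, the partner of Drosha, at -0.20 (adjusted p = 0.0443). *Tarbp2* was at 0.19 (adjusted p = 0.00258). These and some others of the list were under the FDR of 0.1 and missed only the 1.2-fold limit. *Lin28a* and *Lin28b*, which block the maturation of let-7, were at 0.12 and 0.16 there.

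The series differed far more than the genotypes did. Between AZN and ABH, with genotype as a block, 37 of the 164 miRNA genes passed. Lower in AZN were 29 (17.7%, against 10.6% of all probe sets tested) and higher were 8 (4.88%, against 5.95%). The 52 probe sets of small nucleolar RNAs, another class of short genes, gave 8 lower and 12 higher. The median difference of the miRNA genes was 0.02 on the log2 scale and that of all probe sets 0.02. At a mean signal of 5 to 6, 9 of 58 miRNA genes (15.5%) were lower in AZN, against 1.83% of all probe sets in that range. Above 7, the shares were 17.0% and 14.5%.

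The call counts moved with the pools that stood apart. Without both unnumbered AZN pools, 24 miRNA genes were lower and 20 higher, while 12.9% of all probe sets were lower and 6.5% higher. Without these and ABH 14, 21 were lower and 36 higher, among them all 8 that were higher with every pool, against 14.1% and 7.25% of all probe sets. Those 21 were all among the 29. Without ABH 14 alone, 25 were lower and 16 higher, against 11.6% and 6.33%. The median difference of the miRNA genes was 0.12 without all 3 pools, and that of all probe sets 0.01.

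*Mir205* differed most. Its signal ran from 6.95 to 7.92 with a median of 7.32 in ABH and from 5.42 to 6.30 with a median of 5.63 in AZN (n = 8 each). The series did not overlap, whichever the genotype. The means were 7.39 ± 0.35 and 5.76 ± 0.34 (log2, SD), 3.09-fold lower in AZN, a log2 difference of -1.63 (limma, standard error 0.13, adjusted p = 3.49e-07), and it was -1.63 too without the pools that stood apart. A further 3 epithelial miRNA genes of the 6 were lower in AZN. *Mir200b* was at -0.81 and *Mir200a* at -0.28. *Mir31*, named to complete this count, was at -0.39. *Mir184* (0.04) and *Mir200c* (0.13), whose strand has the seed of miR-200b, did not pass.

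The dental epithelium genes moved less between the series. Of 16 measured, 4 were lower in AZN and 1 higher, with a median of -0.11. The signalling gene *Shh* was at -0.81, the adhesion genes *Cdh1* at -0.32 and *Epcam* at -0.37, and the splicing factor *Esrp1* at -0.34, while the keratin gene *Krt15* was at 0.59. Their mean per pool was 9.74 to 10.18 in ABH and 9.45 to 10.17 in AZN, so the series overlapped. Skeletal muscle genes had a median of 0.60 between the series, with 9 of 22 higher in AZN and 0 lower. The part of either tissue in the miRNA values was not tested.

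Of the 7 mesenchymal and skeletal miRNA genes, 4 passed as lower in AZN, and all 7 lay below 0. Among the 11 dental mesenchyme genes measured, 2 were lower and 1 higher, with a median of -0.06, and their mean per pool was 10.79 to 11.05 in ABH and 10.65 to 11.09 in AZN. Of 7 erythroid genes, 3 were higher and 0 lower, with a median of 0.45. *Mir199a-1*, of the family that marks embryonic mesenchyme, ran from 7.76 to 8.24 with a median of 8.02 in ABH and from 7.15 to 7.52 with a median of 7.35 in AZN, without overlap. Its difference was -0.68 (limma, standard error 0.07, adjusted p = 2.5e-06). *Mir199b*, which makes the same 3p strand, was at -0.70 and did not overlap either. *Mir145a* (-0.90) and *Mir143* (-0.28), miRNAs of smooth muscle and its precursors, completed the 4.

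*Mir568* and *Mir130a* followed *Mir205* in the certainty of the call. *Mir568* ran from 5.87 to 6.78 with a median of 6.44 in ABH and from 4.76 to 5.40 with a median of 5.20 in AZN, a difference of -1.27 (limma, standard error 0.13, adjusted p = 1.83e-06). *Mir130a*, known from endothelium and from the making of blood and bone, ran from 5.23 to 5.93 with a median of 5.601 in ABH and from 4.03 to 4.94 with a median of 4.43 in AZN, a difference of -1.13 (limma, standard error 0.11, adjusted p = 1.8e-06). Neither gene overlapped between the series. *Mir130a* lay below the minimum of 5 in every AZN pool, so it is among the genes described through its ABH values alone, and its size in AZN is set near the background. Of the 29 genes lower in AZN it was the only one with an AZN mean at or under 5.

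The Dlk1-Dio3 domain gave 7 of the 29. Its miRNAs come from long maternal transcripts, and neighbouring hairpins can share one. *Mir382* ran from 7.29 to 8.20 in ABH and from 5.71 to 7.56 in AZN, a difference of -1.27 (limma, standard error 0.22, adjusted p = 0.00025). *Mir377* ran from 8.31 to 9.21 in ABH and from 6.48 to 8.34 in AZN, a difference of -1.14 (standard error 0.23, adjusted p = 0.00104). For both the series overlapped in part, and the lowest AZN pools were the unnumbered ones. Without these and ABH 14 the differences were -0.96 and -0.76 and still passed. *Mir323* (-0.96), *Mir300* (-0.69), *Mir134* (-0.65), *Mir329* (-0.56) and *Mir369* (-0.37) were the others. The remaining 19 genes of the domain did not pass, and 10 of the 26 lay above 0, up to 0.43 for *Mir341*, which sits in the maternal transcript *Rian* (0.23).

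**Figure D3:**
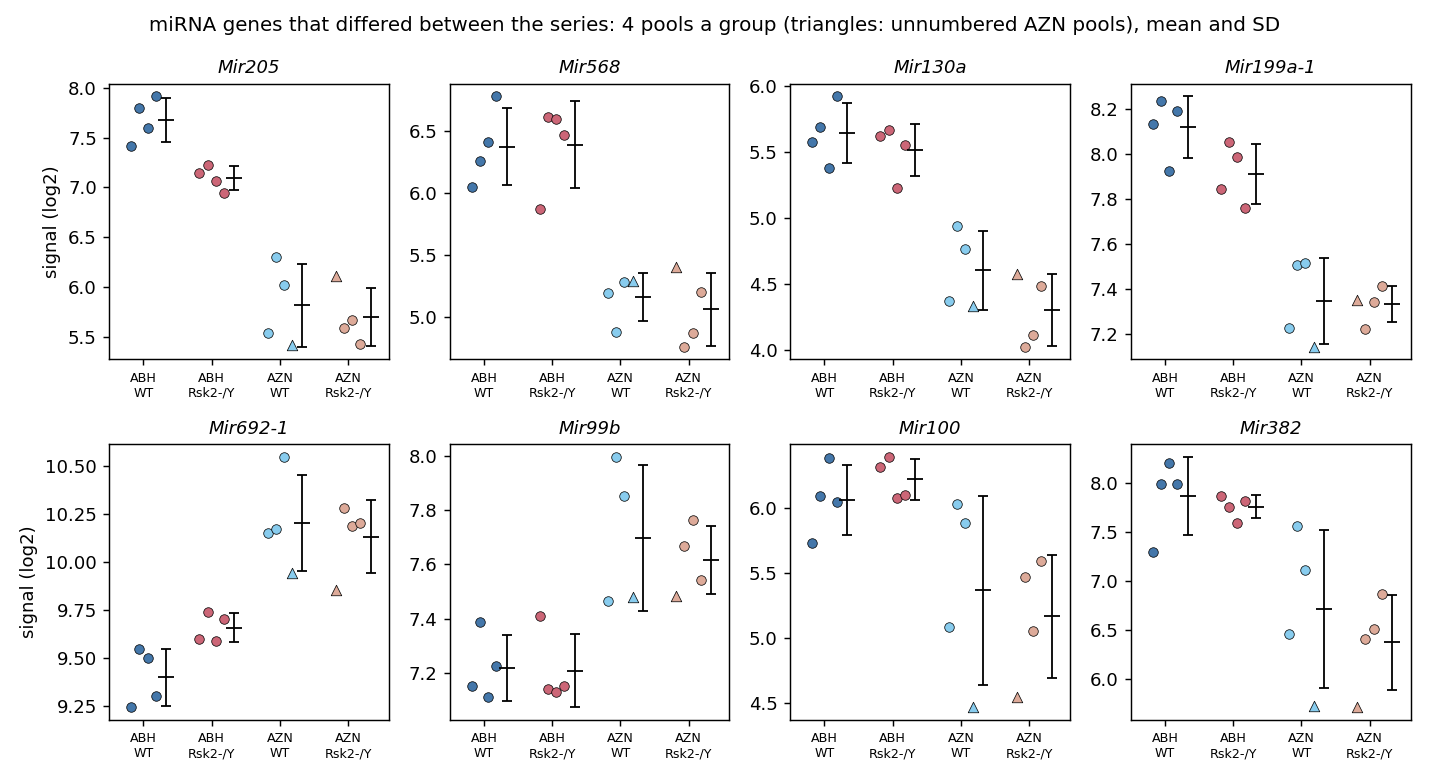
Signal (log2) of 8 miRNA genes in every pool, by series and genotype; points are pools, triangles the unnumbered AZN pools, bars the group mean and SD (n = 4). *Mir205*, *Mir568*, *Mir130a* and *Mir199a-1* are lower and *Mir692-1* and *Mir99b* higher in all 8 AZN pools than in any ABH pool, whereas *Mir100* and *Mir382* overlap.

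Of the 34 seeds shared by at least 2 of the genes, 16 had no gene that passed between the series, 5 had every gene pass in the same direction, 12 had some pass in 1 direction, and 1, ACCCGUA, had calls both ways. The strands of *Mir100*, *Mir99a* and *Mir99b* have this seed, and *Mir100* was lower in AZN (-0.88, adjusted p = 0.00235 from limma), *Mir99b* higher (0.44, adjusted p = 0.000329) and *Mir99a* at -0.26 (adjusted p = 0.412). *Mir99b* ran from 7.11 to 7.41 in ABH and from 7.46 to 7.996 in AZN, without overlap. *Mir125b-1*, near *Mir100*, was lower (-0.55), and *Mir125a*, near *Mir99b*, was at -0.16. *Mir130b*, with the seed of *Mir130a*, was at 0.02. Of the 5 genes with the miR-181 seed ACAUUCA, *Mir181b-1* (-0.91), *Mir181b-2* (-0.58) and *Mir181a-2* (-0.29) were lower, while *Mir181c* (-0.02) and *Mir181d* (0.02) did not pass. The seeds with every gene lower were 2 of *Mir103-2* (-0.67) and *Mir107* (-0.39), 1 of *Mir199a-1* and *Mir199b*, 1 of *Mir200a* and *Mir200b*, and 1 of *Mir181b-1* and *Mir181b-2*. The family members named here beyond the leading calls were chosen for their seeds, with their values known, and the differences between them were not tested.

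Of the remaining calls, *Mir18*, of the proliferative mir-17-92 cluster, was at -0.93 without overlap, and *Mirlet7d* was at -0.84. *Mir30e*, *Mir674* and *Mir677* complete the 29, at -0.60, -0.47 and -0.28. The highest call was that of *Mir692-1*, which ran from 9.24 to 9.74 with a median of 9.57 in ABH and from 9.86 to 10.55 with a median of 10.18 in AZN, without overlap, a difference of 0.64 (limma, standard error 0.09, adjusted p = 3.88e-05). *Mir212*, which neurons induce on activity, ran from 6.66 to 7.007 in ABH and from 7.014 to 7.45 in AZN, a difference of 0.34 (adjusted p = 0.000532 from limma). The other calls that were higher were *Mir717* (0.57), *Mir680-1* (0.44), *Mir7-1* (0.36), *Mir693* (0.30) and *Mir210* (0.27), the hypoxia-induced miRNA. *Mir680-1* shares its strand's seed with *Mir680-2* (0.21) and *Mir680-3* (0.04), and whether the array separates such copies was not tested. Of the 164 genes, 12 did not overlap between the series (7.3%, against 9.0% of all probe sets tested), 8 of them with AZN below.

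Base composition went with the direction of the series difference. RefSeq holds the hairpin of 141 of the genes. The median GC content of the hairpin was 47.1% for the 27 that were lower in AZN, 54.1% for the 107 that did not pass and 57.8% for the 7 that were higher. Of the 48 hairpins with the least GC (31.3% to 50.0%), 18 were lower and 2 higher. Of the 47 with the most (56.0% to 69.2%), 2 were lower and 4 higher. Across the 141 genes Spearman's rho between GC and the series difference was 0.46. It was -0.34 for the genotype difference in ABH and 0.26 for that in AZN. Without the 3 pools that stood apart these were 0.38, -0.35 and 0.40. Genes share pools and arrays and are not independent, so these are descriptions, and the part of GC in the calls was not tested.

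**Figure D4:**
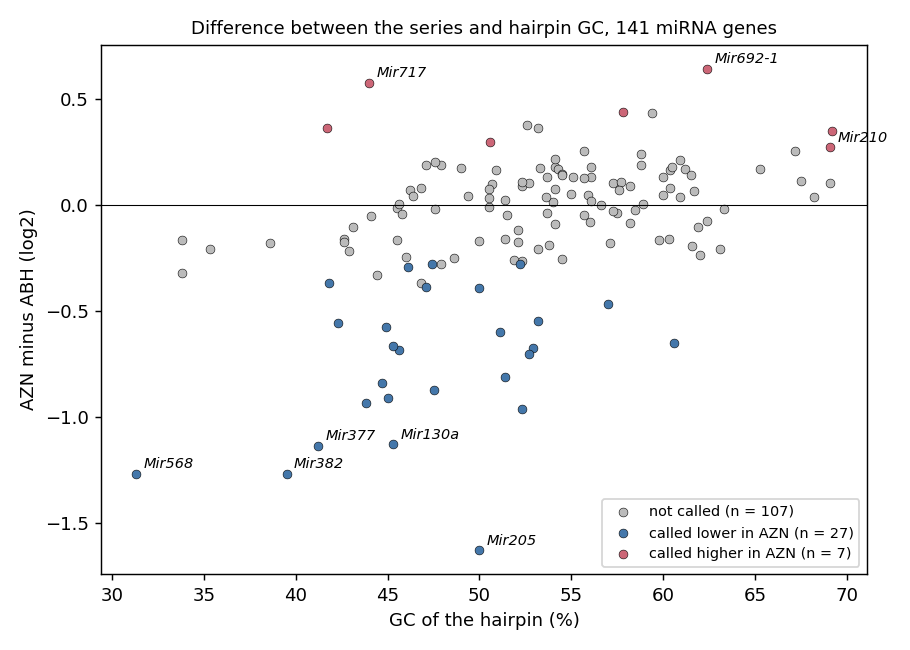
GC content of the hairpin (%, x axis) against the difference between AZN and ABH (log2, y axis) for 141 miRNA genes, coloured by call. The 27 genes lower in AZN have a median GC of 47.1% and the 7 higher a median of 57.8%, with *Mir692-1* and *Mir210* on the right and *Mir568* at 31.3%.

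The genes around the miRNAs were read as a second measurement. In RefSeq, 70 of the 141 genes with a hairpin lie within another gene on the same strand, and for 54 of these the host was measured, matched by symbol and read from its probe set with the highest mean signal. Host and miRNA differed between the series with the same sign in 34 of 54 pairs. In 9 of the 54 pairs the miRNA gene passed and in 15 the host did, while 16.5% of all probe sets tested passed. A host of several miRNA genes, such as *Clcn5*, *Spaca6* or *Mir100hg*, counts once for each of them, so the pairs are not independent. Both passed in 3 pairs, each with both lower in AZN. These were *Mir125b-1* and *Mir100* with *Mir100hg* (-0.54), and *Mir30e* with *Nfyc* (-0.32), a subunit of a CCAAT-binding factor. *Nfyc* has 2 probe sets, at -0.32 (mean signal 10.48, used) and -0.31 (7.74), both of which passed, and which of them reads the transcript around *Mir30e* was not tested. *Hnrnpk*, around *Mir7-1*, and *2610318N02Rik*, around *Mir130b* and *Mir301b*, also have several probe sets, none of which passed. Those of *2610318N02Rik* were at 0.09 (mean signal 9.55, used) and -0.14 (6.51). The sign match of its pairs between the series therefore depends on the probe set read. In the other direction, *Mir103-2* was at -0.67 with its host, the pantothenate kinase gene *Pank2*, at 0.06, and *Mir717* was at 0.57 with *Gpc3*, which encodes a glypican, at -0.03. *Mir483*, in the abundant growth factor gene *Igf2* (mean signal 13.12), was at 0.00 with its host at 0.02. In ABH, host and miRNA had the same sign for genotype in 29 of 54 pairs and in AZN in 32, with 0 hosts passing in either.

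**Figure D5:**
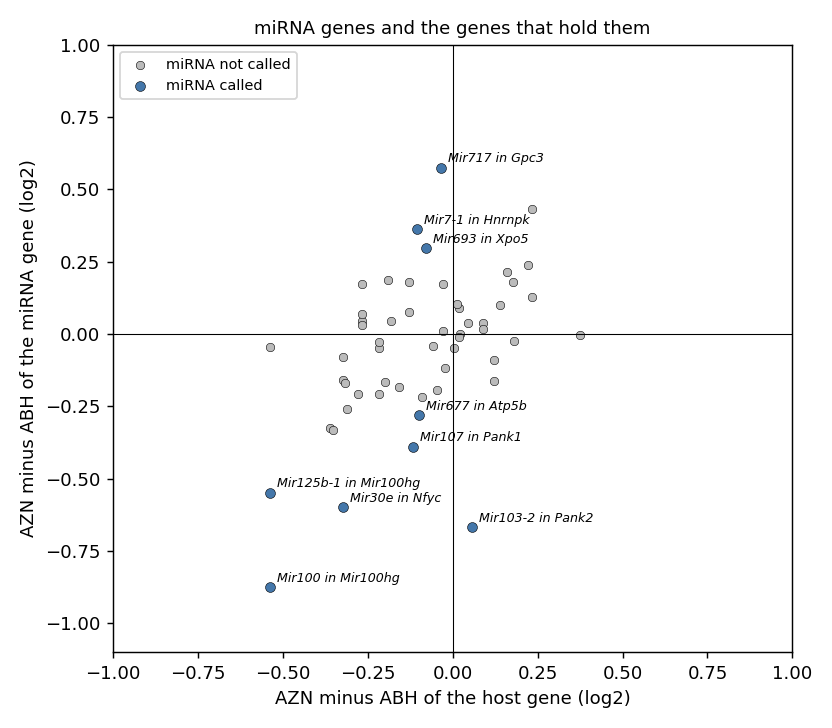
Difference between AZN and ABH (log2) of the host gene (x axis) and of the miRNA gene inside it (y axis) for 54 pairs, with the 9 miRNA genes that passed in blue. *Mir100* and *Mir125b-1* lie low together with *Mir100hg*, whereas *Mir103-2* and *Mir717* lie away from 0 while their hosts lie near it.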

How the data were processed

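Each array gave a log2 signal for every probe set of the Affymetrix Mouse Gene 1.0 ST design, and these log2 values were used as deposited. Per the labels, the authors obtained them by RMA in Affymetrix Expression Console 1.3.1.187. RMA subtracts background, brings all arrays to a shared distribution and combines the probes of a set, so no second normalization was done. Precision is limited by the number of arrays, since no counts exist.

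In the platform annotation 21789 of 35556 probe sets carry 1 symbol, used as given. Tested were the 18834 of these with any sample above a signal of 5. Probe sets that hold a miRNA among several symbols (61) were not used. The fits used lmFit and eBayes of limma 3.58.1 (R 4.3.3), with two-sided tests and Benjamini-Hochberg adjustment over the 18834. To pass, a gene needed an FDR under 0.1 and a change of more than 1.2-fold. The 5 comparisons were genotype over all samples with no covariate, genotype in ABH and in AZN, the interaction of both, and AZN minus ABH with genotype as a block. The methods' t-test for 2 groups was an alternative, as were array weights, other signal filters, centring and leaving out samples. Scripts were tested on simulated data. Hosts, hairpins and strands come from RefSeq by gene ID. Python 3.11.15, pandas 2.3.3 and SciPy 1.17.1 were used.

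Named were the genes that passed (up to 10 per comparison and direction), the 3 that differed most each way for genotype, the 8 with the highest signal, the 2 on each side of the minimum, up to 3 per list by signal, and *Mir125b-1*. Genes, lists and alternatives were chosen with earlier results of these data known.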

Additional observations from a re-analysis of the deposited data

Results flagged for a closer look

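The value of 1 pool lay far from the other 3 of its group in 7 of 120 groups of 4 tested over 30 named miRNA genes, where chance gives about 1 in 20. In the *Rsk2-/Y* pool ABH 14, *Mir377* was at 9.21 (others 8.56 to 8.65), *Mir323* at 9.16 (others 7.92 to 8.0), *Mir99b* at 7.41 (others 7.13 to 7.15), *Mir132* at 5.78 (others 5.36 to 5.39) and *Mir143* at 7.17 (others 6.44 to 6.54). In WT pool ABH 13, *Mir30e* was at 6.22 (others 5.90 to 5.93) and *Mir132* at 5.34 (others 5.58 to 5.61).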

How the results depend on the processing

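Alternatives were computed for the 30 miRNA genes named for a comparison, each only in the comparisons that named it. None of them changed direction. The genes named for their level or list alone had no alternative computed. The single gene that passed in ABH, *Mir125b-1*, gave 0 calls with the spread estimated over all 16 samples and with the methods' t-test, and 0 to 1 when each pool was left out in turn. With array weights 1 miRNA gene passed as lower in ABH, among 140 probe sets lower in all. Between the series, the 8 genes that were higher became 14 with array weights, 20 without both unnumbered AZN pools, 36 without these and ABH 14, both of the last chosen after seeing the data, and 4 to 16 when each pool was left out. The 29 that were lower became 19 with WT samples only, 16 of them shared, and 25 to 37 when each pool was left out. *Mir210*, *Mir717* and *Mir7-1* no longer passed in 10, 10 and 9 of 25 alternatives. The cause was not tested. Samples numbered 1 and 3 in both AZN genotypes are not stated to be paired, and their deviations correlated at -0.03 and -0.01, while those of the unnumbered pair correlated at 0.68. With these numbers as a replicate block, 0 miRNA genes passed in either direction. Values near the signal minimum of 5 limit what can be seen of the weakest genes.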
